A study of Mus musculus with 16 samples.

Results

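Cytochrome P450 families 1 to 3 were followed in mouse liver as the genes whose symbols are Cyp, a family number from 1 to 3, a subfamily letter and a member number, and whose count reached 10 in at least 4 of the 16 libraries. Of 60 genes with such symbols among the 51912 in the count table, 43 met the count rule, and all 43 were among the 14920 genes tested. The livers came from male mice, 13 weeks old, kept from 10 weeks of age, for 3 weeks, on the study's control diet or on its low isoleucine version. Livers were collected in the fasted state (16 h, overnight) or the refed state, and 4 libraries stand for each of 4 groups: control fasted, low isoleucine fasted, control refed and low isoleucine refed. All 4 groups were male, of the same age and unmodified as far as the labels say, and the labels give neither the strain, the length of refeeding nor the isoleucine content of a diet. Nothing says whether the libraries of a group are separate mice, so p-values measure the spread between these libraries. Where single livers are counted or compared below, in text or figures, a liver stands for a library. The comparisons ask which transcripts differed with the diet within each feeding state, which differed with feeding on each diet, and whether the diet effect differed between the feeding states.

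P450 enzymes are haem proteins of the endoplasmic reticulum that insert an oxygen atom into their substrates, with electrons passed to them by the reductase Por. Families 1 to 3 oxidise drugs, pollutants, steroids, retinoids and fatty acids, and the liver is their main site. Many of their genes answer to ligand-activated receptors, the aryl hydrocarbon receptor Ahr for Cyp1a and Cyp1b genes, and the receptors CAR (Nr1i3) and PXR (Nr1i2) for Cyp2b, Cyp2c and Cyp3a genes. In mice several of them also differ strongly between the sexes, under control of the pattern of growth hormone release.

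The 43 members comprised 2 Cyp1a genes, Cyp1b1, 4 Cyp2a, 2 Cyp2b, 13 Cyp2c, 6 Cyp2d, Cyp2e1, Cyp2f2, Cyp2g1, 3 Cyp2j, Cyp2r1, Cyp2s1, Cyp2u1 and 6 Cyp3a genes. Most lie in tandem runs, given here in GRCm38 coordinates of the GENCODE M21 annotation, in which every gene of the pattern is protein coding. A run of 14 Cyp2c genes on chromosome 19 from 39007019 to 40187333 held 12 members. Another of 13 genes on chromosome 7 from 25802475 to 27158668 held 9 members of subfamilies 2a, 2b, 2f, 2g and 2s. The Cyp2d run on chromosome 15 from 82370527 to 82794294 held 6 members, and the Cyp3a run on chromosome 5 from 145345279 to 146113287 held 5. Of the 17 genes that missed the count rule, 6 had no count in any library. Cyp3a41a lay just inside the threshold, with 4 libraries at 10 counts or more. Cyp2b13 and Cyp2d12 lay just outside it, with 1 library each.

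The copies in these runs resemble each other, which bears on every value below. Of the 50-base windows in a member's principal transcript, a median of 11.2% occurred in a transcript of another gene. In 8 members no window was shared, and in 4 members more than 50% were: Cyp3a41a (98.6%), Cyp2c40 (72.1%), Cyp2c69 (54.8%) and Cyp2c67 (52.8%). The share was 43.3% for Cyp2c68, 30.1% for Cyp2c37, 29% for Cyp2d9, 12% for Cyp2c39, 11.2% for Cyp2b9 and 4.76% for Cyp2e1. Reads from shared windows were divided between copies by the authors' estimation, so levels of the first group are uncertain one by one. A sum over a subfamily does not depend on that division within the subfamily.

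Library totals ran from 24368656 to 34002955 expected counts, and the labels' sample numbers 1, 2, 7 and 9 coincide with the 4 groups. The 43 members took 2.2% ± 0.198 of all counts in control fasted livers, 2.11% ± 0.294 in low isoleucine fasted, 1.84% ± 0.3 in control refed livers, and 2.16% ± 0.125 in their low isoleucine counterparts (SD, n = 4). Of 8 hepatocyte markers the table matched 7, whose summed level was at least 63100 CPM (counts scaled to the library's total after TMM normalisation) in every library. Some libraries led or trailed their group for many of the 43 members: low isoleucine fasted library 1 was the highest for 25 and control refed library 2 for 21, while control fasted library 4 and low isoleucine fasted library 3 were the lowest for 22 each and control refed library 4 for 21. Control refed library 2 was also the highest of its group for all 7 female-predominant members, and control refed library 4 had the highest summed markers of Kupffer (446 CPM), stellate (505), endothelial (254) and lymphoid cells (10.7) of its group. Library 4 was also at the top of its group for hepatocyte (81000 CPM) and neutrophil markers (6.5), but not for bile duct or erythroid markers. Member values that move most with these 2 control refed libraries are given with and without them. In bulk tissue, fewer cells of a type and less RNA per cell cannot be told apart.

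Cyp2e1, which oxidises ethanol, acetone and paracetamol, was the most abundant member in every group and took between 38.4% and 60.1% of the members' counts. Its level was 12400, 12800, 12900 and 10400 CPM in control fasted libraries 1 to 4, and 16300, 11900, 8930 and 12000 in low isoleucine fasted libraries. After refeeding it was 10100, 9380, 9320 and 4560 CPM on the control diet against 10300, 11700, 11900 and 9390 on the low isoleucine diet. The control refed livers all lay below the control fasted ones, and every other pairing of groups that differ in diet or feeding alone overlapped. Per kilobase of transcript, the scale on which genes can be compared, the group means of Cyp2e1 were 4540 to 6700 CPM per kb. The next highest, Cyp3a11, had means of 706 to 879 CPM per kb, and Cyp2d9 354 to 820. At the other end of that scale, the lowest group means were those of Cyp3a44 in control fasted (0.0614 CPM per kb), Cyp2b10 in control refed (0.067), Cyp2c55 in low isoleucine fasted (0.068) and Cyp2a4 in control fasted livers (0.0741).

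**Figure D1:**
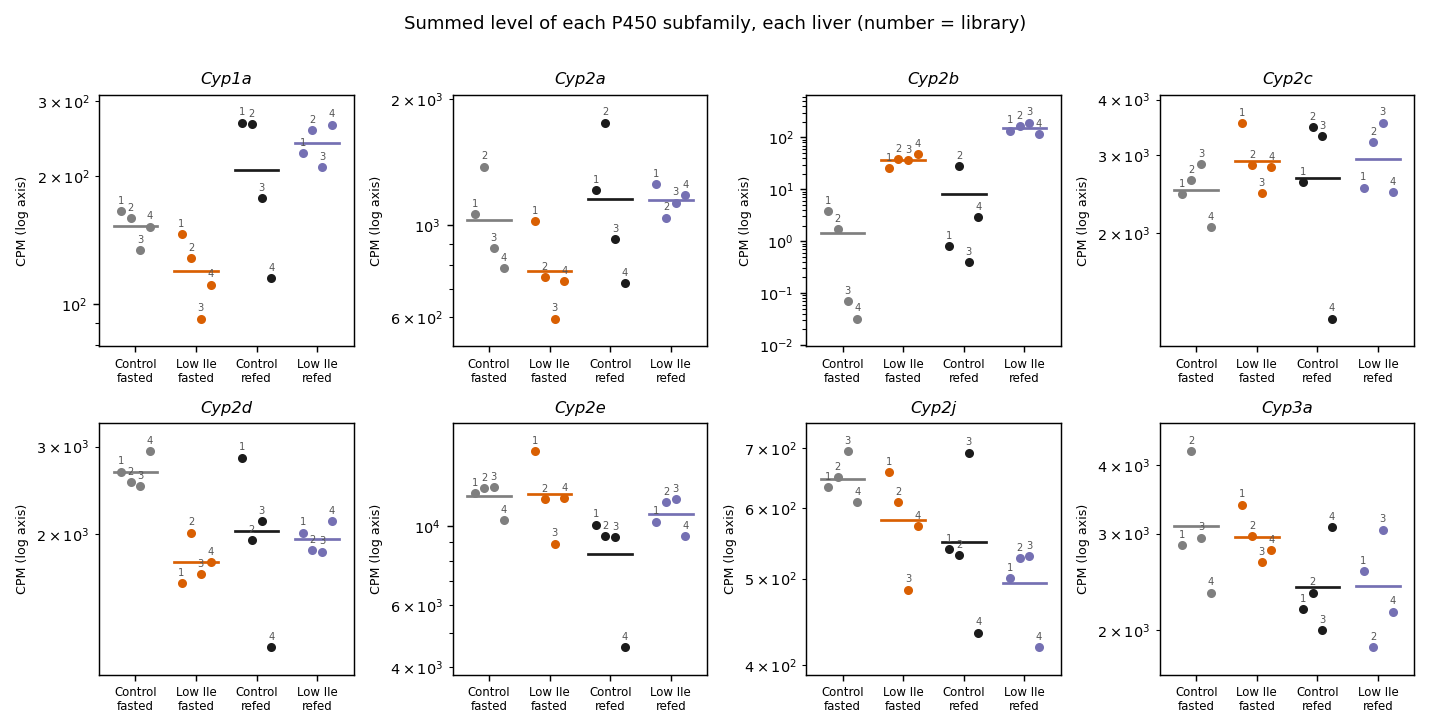
Summed level of 8 subfamilies in each of the 16 livers, in TMM-normalised CPM on log axes that differ between panels. Points are libraries, numbered 1 to 4 within a group, and bars are group means; Cyp2b reads 25.3 to 47.1 CPM in low isoleucine fasted and 116 to 194 in low isoleucine refed livers, above every control liver of the same feeding state.

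Summed over a subfamily, Cyp2b stood furthest apart by diet. Its level was 1.42 ± 1.81 CPM in control fasted against 36.8 ± 9 in low isoleucine fasted livers, and 8.14 ± 13.6 in control refed against 152 ± 34.4 in low isoleucine refed livers (SD, n = 4). The diets did not overlap in either feeding state. Cyp2d was 2660 ± 200 CPM in control fasted against 1750 ± 184 in low isoleucine fasted livers, again without overlap, and 2020 ± 686 against 1960 ± 134 after refeeding. Cyp1a, Cyp2a, Cyp2c, Cyp2e, Cyp2j and Cyp3a overlapped between diets in both feeding states. In the order control fasted, low isoleucine fasted, control refed and low isoleucine refed, Cyp2c was at 2500 ± 339, 2910 ± 452, 2660 ± 996 and 2940 ± 528 CPM. In the same order Cyp3a was at 3100 ± 812, 2950 ± 316, 2400 ± 474 and 2410 ± 518, Cyp2a at 1030 ± 260, 775 ± 179, 1150 ± 450 and 1150 ± 88.9, and Cyp2j at 647 ± 36.3, 581 ± 72.4, 550 ± 106 and 494 ± 51.9. Cyp1a was at 152 ± 13.4, 119 ± 23.1, 206 ± 73.8 and 239 ± 25.2 CPM, with the mean of each refed group above that of its fasted group. These sums were not tested.

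Within a subfamily the leading member carried the sum in some cases and not in others. Cyp1a2, which oxidises caffeine and aromatic amines, was nearly all of Cyp1a, at 164, 158, 133 and 151 CPM for control fasted, 145, 127, 91.7 and 111 for low isoleucine fasted, 266, 264, 176 and 114 for control refed and 226, 255, 210 and 263 for low isoleucine refed libraries. Low isoleucine refed livers lay above all low isoleucine fasted ones, whereas the control groups overlapped through control refed library 4. Cyp2a12 was at 582, 608, 570 and 547 CPM for control fasted, 559, 591, 440 and 474 for low isoleucine fasted, 618, 728, 641 and 473 for control refed and 653, 530, 512 and 580 for low isoleucine refed libraries, with overlap throughout. Cyp2j5, an arachidonic acid epoxygenase of liver and kidney, was at 556, 558, 595 and 525 CPM for control fasted, 569, 515, 419 and 492 for low isoleucine fasted, 477, 464, 607 and 366 for control refed and 434, 449, 449 and 352 for low isoleucine refed libraries. Its diet groups overlapped in both feeding states.

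Cyp2c50 led the Cyp2c genes, an arachidonic acid oxidising group in mouse, and Cyp3a11 the Cyp3a genes. Cyp2c50 was at 616, 763, 740 and 509 CPM for control fasted, 798, 514, 386 and 498 for low isoleucine fasted, 606, 847, 653 and 222 for control refed and 559, 694, 944 and 551 for low isoleucine refed libraries. Its groups overlapped, with the lowest value in control refed library 4. Cyp3a11, the main drug-metabolising Cyp3a enzyme of mouse liver and a PXR target, was at 1840, 3080, 1920 and 1400 CPM for control fasted, 2170, 1860, 1750 and 1760 for low isoleucine fasted, 1600, 1660, 1380 and 2380 for control refed and 1780, 1110, 2210 and 1530 for low isoleucine refed libraries. It overlapped in every comparison, and its fitted diet difference was -0.13 on the log2 scale in fasted livers, with an approximate 95% interval from its SE of -0.59 to 0.33. In refed livers the difference was -0.08, with an interval of -0.54 to 0.38.

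Among fasted livers, Cyp2c39 and Cyp2c68 rose on the low isoleucine diet, and no member fell. These 2 of 43 members compare with 0.771% of all genes tested that passed in this comparison (edgeR quasi-likelihood F test, Benjamini-Hochberg adjusted p under 0.05 over all genes), 0.328% higher and 0.442% lower. Cyp2c39 (ENSMUSG00000025003, chromosome 19 from 39510862 to 39568529, plus strand), which in mouse can hydroxylate retinoic acid, was at 7.36, 8.91, 4.8 and 3.69 CPM in control fasted against 14.1, 11.8, 16.3 and 15.1 in low isoleucine fasted libraries. The groups did not overlap, and the log2 fold change was 1.21 (SE 0.251, edgeR adjusted p = 0.0332). Cyp2c68 (ENSMUSG00000074882, chromosome 19 from 39688834 to 39741054, minus strand) was at 221, 180, 279 and 207 CPM in control fasted against 444, 392, 400 and 427 in low isoleucine fasted libraries. Again every low isoleucine liver lay above every control liver, and the log2 fold change was 0.91 (SE 0.173, edgeR adjusted p = 0.0252). Both calls depended on single libraries. Without control fasted library 1 or 4, or low isoleucine fasted library 2, 3 or 4, neither passed and the count was 0. Without control fasted library 2 or 3, or low isoleucine refed library 1, which enters through the shared estimate of spread, it was 1. Without control refed library 2 or 4 it was 4.

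**Figure D2:**
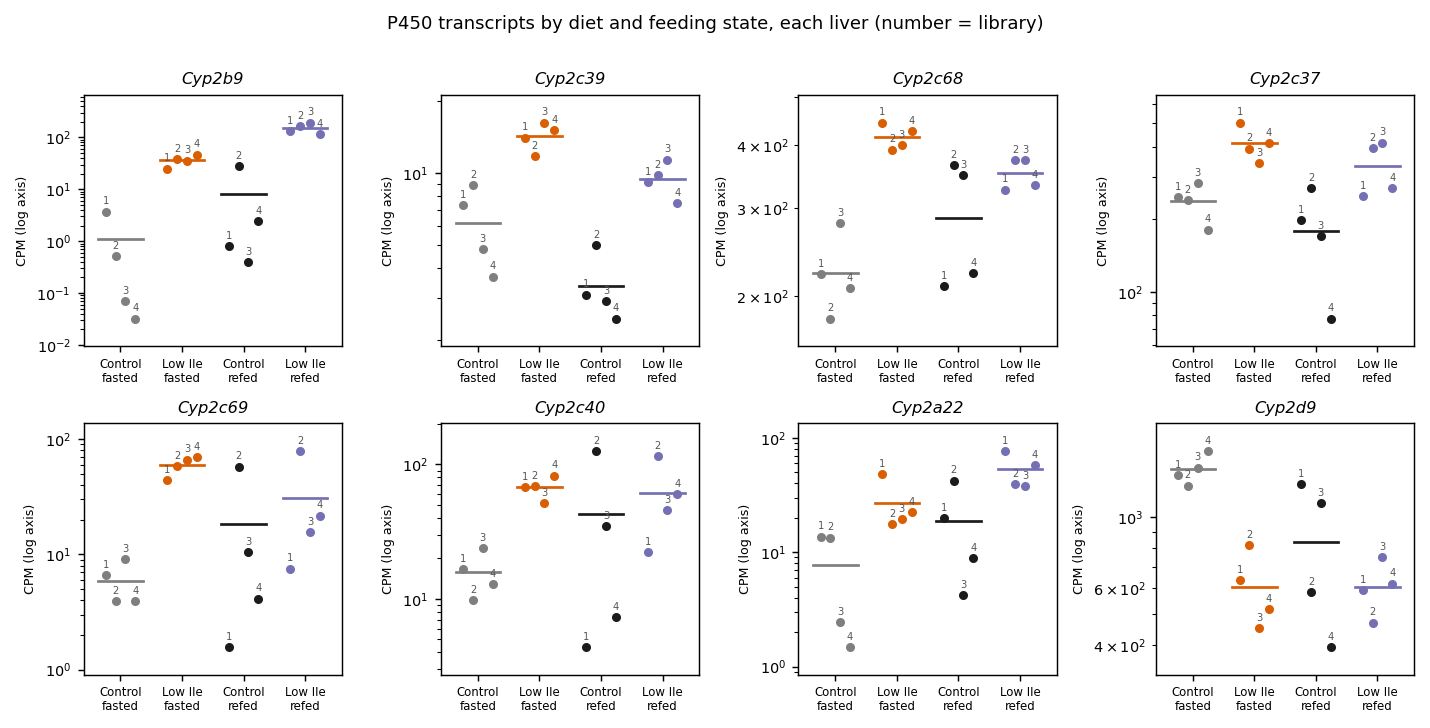
Level of 8 members in each of the 16 livers, in TMM-normalised CPM on log axes that differ between panels. Points are libraries numbered within a group and bars are group means; Cyp2b9 spans 0.0321 to 3.7 CPM in control fasted against 115 to 193 CPM in low isoleucine refed livers, and control refed library 2 is the highest control liver for Cyp2b9, Cyp2c40, Cyp2c69 and Cyp2a22.

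A further 12 members separated the fasted diet groups without passing the test. With Cyp2c39 and Cyp2c68, 9 members lay higher and 5 lower with no overlap on the low isoleucine diet, against 8.07% of all genes with no overlap (3.67% higher, 4.4% lower). Unadjusted p was under 0.05 for 13 members, 9 higher and 4 lower, against 10.8% of all genes. Cyp3a44, among the higher members in both counts, met the count rule only through low isoleucine libraries, so its place there is not independent of the rule. The same holds for Cyp2c55, among the 4 lower by unadjusted p, which met it only with control libraries included. The median log2 fold change was -0.16 over the members and 0.01 over all genes, and 19 of 43 members had positive values. In size, the median absolute log2 fold change was 0.35 over the members and 0.16 over all genes.

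Cyp2b9 (ENSMUSG00000040660, chromosome 7 from 26173411 to 26210661, plus strand), a steroid hydroxylase known as female-predominant in mouse liver, had the largest fitted difference of the members. Its level was 3.7, 0.512, 0.0691 and 0.0321 CPM in control fasted against 25, 37.7, 35.6 and 46.5 in low isoleucine fasted libraries. In refed livers it was 0.804, 28.3, 0.399 and 2.46 CPM on the control diet against 133, 165, 193 and 115 on the low isoleucine diet. The diets did not overlap in either state, and control refed library 2 was within the range of the low isoleucine fasted livers. The log2 fold change was 5.09 in fasted livers (SE 1.21, edgeR adjusted p = 0.081) and 4.23 in refed livers (SE 1.08, edgeR adjusted p = 0.162), so Cyp2b9 passed in neither. With control refed library 2 left out it passed in both, at 5.09 (edgeR adjusted p = 0.0143) and 6.83 (edgeR adjusted p = 0.00994). Its relative Cyp2b10, the classic CAR target, was low throughout, with group means of 0.128 to 0.722 CPM. Cyp2b13, a non-member named after its values were seen, had 3.64, 7.68, 17 and 5.06 expected counts in low isoleucine refed libraries and no more than 1.39 in any other.

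In the run on chromosome 19 the neighbours of Cyp2c39 differed among themselves. Cyp2c69 was at 6.65, 3.96, 9.08 and 3.91 CPM in control fasted against 44.2, 58.5, 66.3 and 69.2 in low isoleucine fasted libraries, a log2 fold change of 3.34 that did not pass (SE 0.948, edgeR adjusted p = 0.149). Cyp2c40 was at 16.6, 9.76, 24 and 12.9 against 67.6, 69.4, 51.7 and 82.5 CPM, a log2 fold change of 2.1 that did not pass either (SE 0.812, edgeR adjusted p = 0.331). Both separated the fasted diets and both overlapped after refeeding. There Cyp2c69 was at 1.57, 57.6, 10.5 and 4.14 CPM on the control diet against 7.52, 78.9, 15.5 and 21.7 on the low isoleucine diet, and Cyp2c40 at 4.38, 126, 34.7 and 7.32 against 22.4, 116, 45.9 and 59.8. Library 2 was the highest in each refed group for this pair, on either diet. Once control refed library 2 was left out, the refed log2 fold change moved from 0.74 to 2.5 for Cyp2c69 and from 0.51 to 1.97 for Cyp2c40, and neither passed (edgeR adjusted p = 0.315 and 0.385). Cyp2c69 then passed in fasted livers (edgeR adjusted p = 0.046). Cyp2c67, which lies between Cyp2c39 and Cyp2c68, had group means of 344 to 412 CPM and log2 fold changes of 0.21 in fasted and -0.17 in refed livers.

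Promoters of these neighbours are shown because Cyp2c40, Cyp2c68 and Cyp2c69 separated the fasted diets while Cyp2c67 did not. RefSeq gave a promoter for 38 of the 43 members (GRCm38.p6). Each sequence is the 250 bases before the RefSeq start, 5′ to 3′ on the gene's strand, with capitals marking CAAAGTCC, a core of HNF4 sites, and ATTGAT, a core of HNF6 sites. RefSeq starts differ from the GENCODE M21 starts by 40 bases for Cyp2c39, 47 for Cyp2c68, 30 for Cyp2c69 and 9 for Cyp2c67. The last 30 bases shown for Cyp2c69, with its ATTGAT, lie inside the GENCODE gene. The regions are chr7:26173159-26173408 on the plus strand for Cyp2b9 and chr19:39510572-39510821 on the plus strand for Cyp2c39. They are chr19:39812815-39813064 for Cyp2c40, chr19:39649043-39649292 for Cyp2c67, chr19:39741102-39741351 for Cyp2c68 and chr19:39886770-39887019 for Cyp2c69, all on the minus strand.
Cyp2b9: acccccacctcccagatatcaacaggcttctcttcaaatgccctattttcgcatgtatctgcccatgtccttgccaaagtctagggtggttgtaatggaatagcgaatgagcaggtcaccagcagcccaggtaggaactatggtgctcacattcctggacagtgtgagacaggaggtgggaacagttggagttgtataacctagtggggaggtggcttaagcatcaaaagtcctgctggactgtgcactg
Cyp2c39: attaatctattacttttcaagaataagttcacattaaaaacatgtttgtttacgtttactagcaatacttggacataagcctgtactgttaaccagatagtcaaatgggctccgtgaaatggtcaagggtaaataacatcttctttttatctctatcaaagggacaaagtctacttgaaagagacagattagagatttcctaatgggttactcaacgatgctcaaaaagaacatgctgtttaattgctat
Cyp2c40: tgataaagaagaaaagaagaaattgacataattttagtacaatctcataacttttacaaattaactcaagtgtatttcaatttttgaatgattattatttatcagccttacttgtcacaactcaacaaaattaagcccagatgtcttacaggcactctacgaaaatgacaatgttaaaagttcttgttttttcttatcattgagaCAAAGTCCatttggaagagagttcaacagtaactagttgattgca
Cyp2c67: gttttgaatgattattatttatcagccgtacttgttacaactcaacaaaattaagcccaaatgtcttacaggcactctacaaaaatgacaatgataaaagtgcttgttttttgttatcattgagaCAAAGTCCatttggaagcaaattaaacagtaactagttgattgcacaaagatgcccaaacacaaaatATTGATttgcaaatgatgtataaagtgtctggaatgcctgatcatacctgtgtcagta
Cyp2c68: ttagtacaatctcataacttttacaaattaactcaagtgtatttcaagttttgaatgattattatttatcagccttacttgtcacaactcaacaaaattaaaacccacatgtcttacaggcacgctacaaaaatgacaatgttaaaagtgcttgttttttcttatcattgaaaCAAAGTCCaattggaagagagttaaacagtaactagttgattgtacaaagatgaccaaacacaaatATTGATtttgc
Cyp2c69: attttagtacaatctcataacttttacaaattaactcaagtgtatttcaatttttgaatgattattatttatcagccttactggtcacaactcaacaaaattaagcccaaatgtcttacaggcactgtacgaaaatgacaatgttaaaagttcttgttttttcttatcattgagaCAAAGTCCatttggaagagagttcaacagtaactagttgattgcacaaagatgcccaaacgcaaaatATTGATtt

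The promoters of Cyp2c40, Cyp2c67, Cyp2c68 and Cyp2c69 were near copies of each other, with annotated starts offset between genes. Over the aligned overlap, Cyp2c40 and Cyp2c69 were identical at 217 of 220 positions (98.6%), Cyp2c68 and Cyp2c69 at 93.5% and Cyp2c67 and Cyp2c68 at 91.7%. Cyp2c67, whose level overlapped between diets, was identical to Cyp2c69 at 93% of positions. All 4 held CAAAGTCC, and all but Cyp2c40, whose window ends earlier in the shared stretch, held ATTGAT. Neither Cyp2b9 nor Cyp2c39 held either run of letters in this window. On both strands, CAAAGTCC was found in 9 of the 38 member promoters (23.7%) and in 1.2% of 32851 windows of the same length. ATTGAT was found in 8 (21.1%) and in 6.72% of windows, and the TATA box TATAAA in 21 (55.3%) and in 12.4%. The STAT5-type palindrome TTCNNNGAA was in 0 of 38 and in 7.02% of all windows, and the AhR core GCGTG in 5 (13.2%) and in 28.2%. HNF1 half-sites (GTTAAT) were in 6 member promoters against 6.43% of all windows, and D-boxes (TTATGNAA) in 3 against 3.07%. The DR4 receptor repeat was in 0 of 38 and in 3 of all windows. A motif that was not found says only that its letters are not in these windows. Members with copied promoters are not independent in these counts.

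Cyp2d9, a testosterone hydroxylase known as male-predominant in mouse liver, had the largest negative difference among abundant members. It was at 1350, 1250, 1420 and 1600 CPM in control fasted against 637, 819, 452 and 517 in low isoleucine fasted libraries. After refeeding it was at 1260, 586, 1100 and 395 CPM on the control diet against 592, 470, 750 and 621 on the low isoleucine diet. Fasted groups did not overlap, whereas in refed livers control libraries 2 and 4 were within or below the low isoleucine range. The log2 fold change was -1.21 in fasted livers (SE 0.29, edgeR adjusted p = 0.0719) and -0.46 in refed livers (SE 0.287, edgeR adjusted p = 0.641), and neither passed. Leaving out control refed library 4, the fasted value of -1.22 passed (edgeR adjusted p = 0.015) and the refed value was -0.71 (edgeR adjusted p = 0.212). Cyp2d40 also separated the fasted diets, at 22.5 ± 3.29 against 13.5 ± 1.68 CPM (SD, n = 4), and did not pass (edgeR adjusted p = 0.48). Its refed levels were 31.5, 32, 21.1 and 5.43 CPM on the control diet against 12.1, 18.2, 13.6 and 16.7 on the low isoleucine diet. There only control library 4 lay below the low isoleucine range. Cyp2d40 passed in both states without control refed library 4, at -0.75 (edgeR adjusted p = 0.0258) and -0.91 (edgeR adjusted p = 0.022).

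The other members that separated the fasted diets had smaller differences or lower levels. Cyp2c37 was at 237 ± 41.6 CPM in control fasted against 412 ± 67.7 in low isoleucine fasted livers, Cyp2c38 at 61.1 ± 20 against 116 ± 1.77, and Cyp2a22 at 7.75 ± 6.69 against 27 ± 14.5 (SD, n = 4). Cyp3a44, a female-predominant gene, was at 0.12 ± 0.0717 against 0.597 ± 0.281 CPM. On the lower side were Cyp2d22, the nearest mouse relative of human CYP2D6, at 186 ± 22.3 against 139 ± 8.96 CPM, and Cyp2f2, which oxidises naphthalene, at 733 ± 158 against 551 ± 68.4. Cyp2d10 also separated, at -0.28 on the log2 scale. None of these passed, with edgeR adjusted p from 0.211 for Cyp2d22 to 0.6 for Cyp2d10. Cyp2c55, which separated no diet group, had the lowest fitted value of all members at -1.51 (SE 0.447, edgeR adjusted p = 0.153), at a level of 0.387 ± 0.152 against 0.136 ± 0.0811 CPM. The remaining members had log2 fold changes between -0.93 for Cyp2a5 and 1.87 for Cyp2a4.

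Among refed livers Cyp2c39 rose on the low isoleucine diet and no other member passed. This 1 of 43 compares with 0.174% of all genes tested that passed, 0.0603% higher and 0.114% lower. Cyp2c39 was at 3.1, 5, 2.91 and 2.46 CPM in control refed against 9.16, 9.8, 11.4 and 7.49 in low isoleucine refed libraries, a log2 fold change of 1.49 (SE 0.259, edgeR adjusted p = 0.0234). Every low isoleucine liver lay above every control liver, as in the fasted state. The call was lost, with values of 1.39 to 1.51, without control refed library 1 or 3 or low isoleucine refed library 1, 2 or 3 (edgeR adjusted p from 0.0517 to 0.0772), and in a fit to the refed groups alone (edgeR adjusted p = 0.142). Only Cyp2c39 and Cyp2b9 separated the refed diets, against 4.44% of all genes (2.2% higher, 2.24% lower). Unadjusted p was under 0.05 for 6 members, 4 higher and 2 lower, against 9.76% of all genes. The median log2 fold change was 0.19 over the members and -0.01 over all genes.

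Cyp2c68 passed in fasted livers and did not pass in refed livers, a difference that the interaction test addresses. Cyp2c68 was at 209, 365, 349 and 222 CPM in control refed against 326, 374, 374 and 333 in low isoleucine refed libraries, with overlap in control libraries 2 and 3, and a log2 fold change of 0.3 (SE 0.172, edgeR adjusted p = 0.602). Leaving out control refed library 2 gave 0.42, and leaving out library 4 gave 0.18 (edgeR adjusted p = 0.475 and 0.801). Cyp2c37 was at 247, 239, 282 and 181 CPM for control fasted, 503, 392, 341 and 412 for low isoleucine fasted, 198, 268, 170 and 77.3 for control refed and 249, 394, 415 and 268 for low isoleucine refed libraries. The refed groups overlapped, and the log2 fold change of 0.89 did not pass (SE 0.282, edgeR adjusted p = 0.285). Leaving out control refed library 2 gave 1.14, leaving out library 4 gave 0.63, and neither passed (edgeR adjusted p = 0.158 and 0.212). Cyp2a22 was at 19.8, 42.2, 4.23 and 8.91 against 76.9, 39.3, 37.9 and 57.8 CPM in refed libraries, 1.5 on the log2 scale (SE 0.713, edgeR adjusted p = 0.527), and 2.26 without control refed library 2 (edgeR adjusted p = 0.369). Cyp2e1 differed by 0.38 on the log2 scale, with an interval of -0.04 to 0.8, and by 0.16 without control refed library 4.

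**Figure D3:**
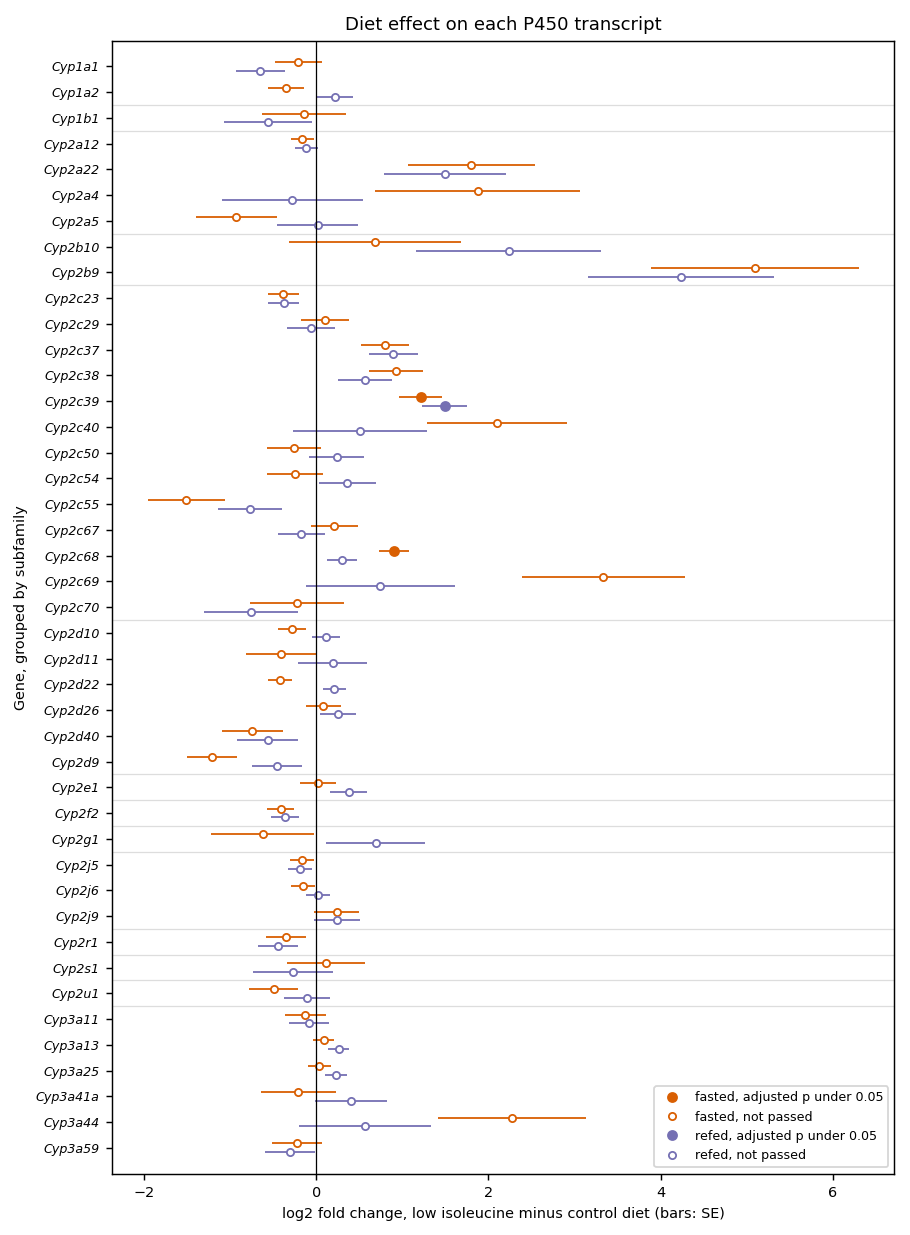
Fitted log2 fold change, low isoleucine minus control diet, of each of the 43 members in fasted and refed livers, with SE bars, grouped by subfamily. Filled points passed the edgeR test; they are Cyp2c39 in both states (1.21 and 1.49) and Cyp2c68 in fasted livers (0.91), and the widest bars belong to Cyp2b9, Cyp2b10, Cyp2a4, Cyp2c69 and Cyp3a44.

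No member passed the edgeR interaction test of whether the diet effect differed between feeding states, where 0% of all genes passed in either direction. Unadjusted p was under 0.05 for 2 of 43 members against 6.22% of all genes, and DESeq2 and limma-voom called no member either. The smallest adjusted p was that of Cyp2d22 (edgeR adjusted p = 0.546), whose log2 fold change was -0.42 in fasted and 0.21 in refed livers, a difference of 0.63 (SE 0.195). For Cyp2c68 the difference was -0.61 (edgeR adjusted p = 0.729). Cyp2c69 had the most negative difference, -2.59 (edgeR unadjusted p = 0.0565, adjusted p = 0.813). Its approximate interval from the SE, -5.04 to -0.15, is narrower than that F test allows.

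Averaged over the feeding states, a contrast added with earlier results known, 4 of 43 members rose on the low isoleucine diet and none fell, against 1.51% of all genes that passed (0.576% higher, 0.938% lower). Unadjusted p was under 0.05 for 16 members against 14.3% of all genes. The 4 were Cyp2c39 at 1.35 on the log2 scale (SE 0.181, edgeR adjusted p = 0.00182), Cyp2b9 at 4.66 (SE 0.812, edgeR adjusted p = 0.0112), Cyp2c68 at 0.6 (SE 0.122, edgeR adjusted p = 0.0185) and Cyp2c37 at 0.85 (SE 0.199, edgeR adjusted p = 0.0441). Cyp2c39, Cyp2b9 and Cyp2c68 passed in all 24 alternatives tried, leaving out each library among them. Cyp2c37 passed in 9 of 24, and it was lost without any library except control refed 2 or 4. Cyp2d9 averaged -0.83 and did not pass (SE 0.204, edgeR adjusted p = 0.0534). Without control refed library 2, 8 members passed, Cyp2c69 (2.92, edgeR adjusted p = 0.0168) and Cyp2d9 (-0.91, edgeR adjusted p = 0.041) among them. Without control refed library 4 it was also 8, 4 higher and 4 lower, Cyp2d9 (-0.96, edgeR adjusted p = 0.00401) and Cyp2d40 (-0.83, edgeR adjusted p = 0.00113) among the lower ones.

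Several members that separated the fasted diets are known for sex bias in mouse liver. Of 10 female-predominant P450 genes listed, 7 were members: Cyp2a4, Cyp2b9, Cyp2c40, Cyp2c69, Cyp2g1, Cyp3a41a and Cyp3a44. In fasted livers 5 of the 7 had positive diet differences, with a median of 2.1 on the log2 scale against 0.01 over all genes. Cyp2a4 and Cyp3a44, both positive there, met the count rule only with low isoleucine libraries included, so these 2 signs are not independent of the rule. In refed livers 6 of 7 were positive, with a median of 0.57 against -0.01. That refed median was 1.97, with 7 of 7 positive, without control refed library 2, and 0.37 when library 4 was the one left out. Among the refed signs, those of Cyp2a4, Cyp3a41a and Cyp3a44 are likewise not independent of the rule. Each met it only with low isoleucine libraries included. None of the 7 passed in either state, and only Cyp2b9 passed in the averaged contrast. Summed over the 10 listed genes, the level was 16.9 to 34.1 CPM in control fasted against 140 to 201 in low isoleucine fasted livers. It was 7.32 to 222 CPM in control refed against 168 to 363 in low isoleucine refed livers. The value of 222 was control refed library 2, which had the highest level of its group for 7 of 7 of these members, while the other control refed libraries summed to 7.2, 47.1 and 18.3 CPM over the 7.

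Of the male-predominant P450 genes, some fell on the low isoleucine diet in the averaged contrast. Of Cyp2d9, Cyp4a12a, Cyp4a12b and Cyp7b1, all 4 had negative differences in both feeding states, with medians of -1.38 in fasted and -1.46 in refed livers, and none passed in either. Averaged, 2 of 4 fell, against 0.938% of all genes lower: Cyp4a12a by 1.88 (edgeR adjusted p = 0.00444) and Cyp4a12b by 1.58 on the log2 scale (edgeR adjusted p = 0.00696). Cyp4a12a was at 374 ± 79.7 CPM in control fasted against 106 ± 29.6 in low isoleucine fasted livers, and at 382 ± 231 against 99.8 ± 33.1 in refed livers (SD, n = 4). The summed level of the 4 genes was lowest of the control livers in control refed library 4, at 662 CPM. That lay inside the low isoleucine fasted range of 660 to 1150 and below the low isoleucine refed range of 675 to 981. Of 9 genes that relay growth hormone to sex-biased P450 genes (Ghr, Jak2, Stat5a, Stat5b, Bcl6, Cux2, Socs2, Cish and Igf1), none passed in a diet comparison. Of all genes, 0.771% passed in fasted and 0.174% in refed livers. Unadjusted p was under 0.05 for 4 of the 9 in fasted livers (10.8% of all genes) and 1 in refed livers (9.76%). In the averaged contrast it was 4 of the 9, against 14.3% of all genes. With feeding on the low isoleucine diet Socs2 fell by 2.28 (edgeR adjusted p = 0.00365) and Stat5b fell by 0.57 on the log2 scale (edgeR adjusted p = 0.0104).

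Cyp2u1 rose and Cyp3a25 fell with refeeding on both diets, and few other members passed. On the control diet, 3 of 43 members rose and 3 fell (14%), against 17.1% of all genes tested (8.91% higher, 8.2% lower). On the low isoleucine diet 3 rose and 1 fell (9.3%), against 21.4% of all genes (9.6% higher, 11.8% lower). Among those that rose, Cyp2a4 on the control and Cyp2c55 on the low isoleucine diet met the count rule only with refed libraries included. Their places in these counts are not independent of the rule. The groups did not overlap for 1 higher and 3 lower members on the control diet (19.1% of all genes, 9.5% higher and 9.62% lower) and, on the low isoleucine diet, for 9 higher and 5 lower members (24.6% of all genes, 11.6% higher and 13.1% lower). Unadjusted p was under 0.05 for 12 members on each diet, against 29.4% of all genes on the control and 33.4% on the low isoleucine diet. The median log2 fold change was -0.12 over the members and 0.01 over all genes on the control diet, and 0.0047 against 0.02 on the low isoleucine diet. The 2 feeding comparisons share no library.

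Cyp2u1, a hydroxylase of long-chain fatty acids, was at 10.4, 8.67, 7.01 and 12.4 CPM in control fasted and 38.8, 11.7, 34.9 and 26 in control refed libraries, 1.53 on the log2 scale (SE 0.279, edgeR adjusted p = 0.00148). On the low isoleucine diet it was at 7.12, 5.53, 6.23 and 8.4 CPM fasted and 23.3, 29.9, 23.6 and 26.2 refed, 1.92 on the log2 scale (SE 0.284, edgeR adjusted p = 0.000217). Only control refed library 2, at 11.7 CPM, lay within the fasted range. Cyp3a25 fell on both diets, by 0.81 (SE 0.133, edgeR adjusted p = 0.000553) and by 0.62 on the log2 scale (SE 0.133, edgeR adjusted p = 0.00314). It was at 737, 856, 752 and 692 CPM in control fasted and 404, 447, 406 and 470 in control refed libraries, and at 914, 839, 627 and 734 against 516, 547, 556 and 404 on the low isoleucine diet. No fasted and refed liver overlapped on either diet. Both genes passed in all 25 alternatives on each diet.

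**Figure D4:**
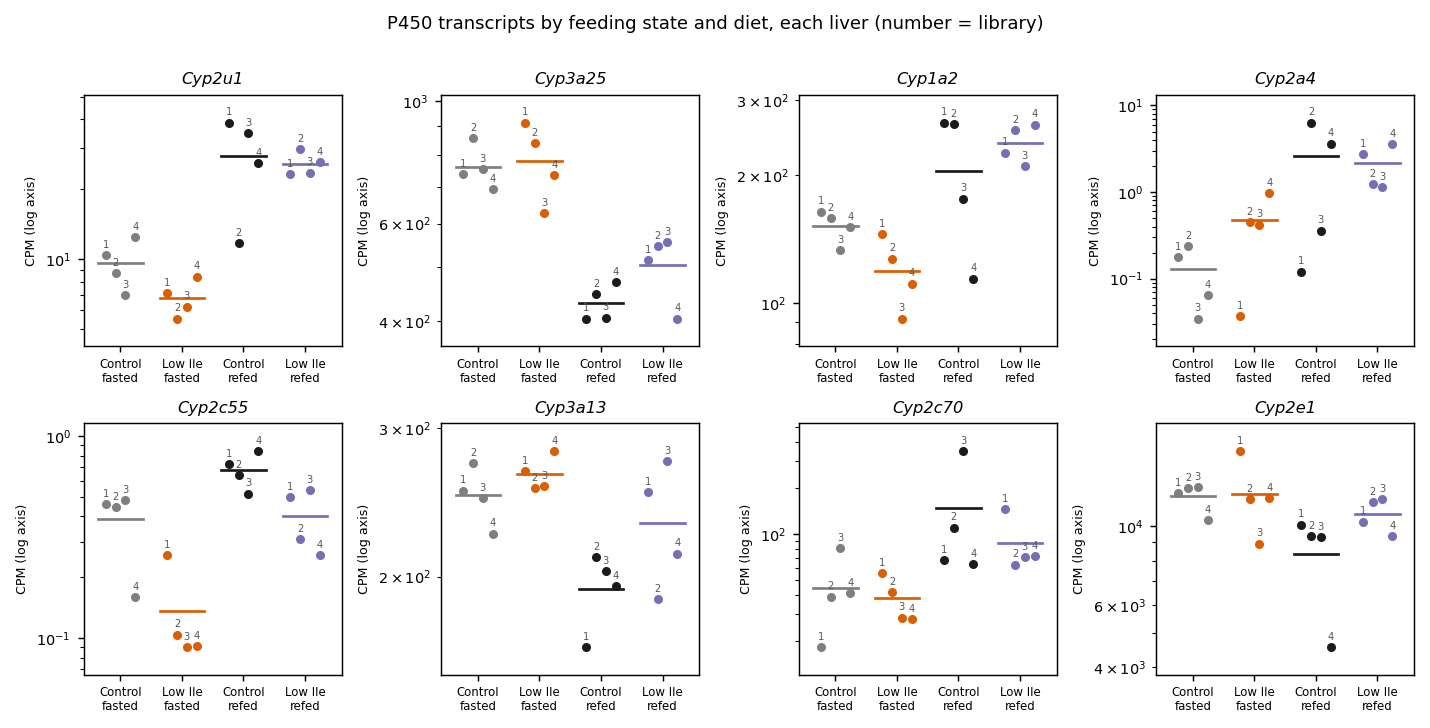
Level of 8 members in each of the 16 livers, in TMM-normalised CPM on log axes that differ between panels; points are libraries numbered within a group and bars are group means. Cyp3a25 reads 627 to 914 CPM in fasted and 404 to 556 in refed livers, and Cyp2u1 5.53 to 12.4 CPM in fasted and 11.7 to 38.8 in refed livers.

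The other calls were made on 1 diet each, and none of them passed the interaction test between diets. Cyp1a2 rose on the low isoleucine diet by 1 on the log2 scale, from 119 ± 23 to 238 ± 25.1 CPM (SE 0.212, edgeR adjusted p = 0.00296), in all 25 alternatives. On the control diet it was 152 ± 13.4 fasted and 205 ± 73.7 refed, 0.44 on the log2 scale, which did not pass (edgeR adjusted p = 0.179). There it passed once control refed library 4 was left out (0.63, edgeR adjusted p = 0.0118), and so did Cyp1b1, lower on both diets (-1.56, edgeR adjusted p = 0.0257, and -1.18, edgeR adjusted p = 0.0412). Cyp2c55 rose by 1.57 on the low isoleucine diet, from 0.136 ± 0.0811 to 0.402 ± 0.138 CPM (SE 0.44, edgeR adjusted p = 0.0173). It did not pass without low isoleucine fasted library 2, 3 or 4 or low isoleucine refed library 1 (edgeR adjusted p from 0.0508 to 0.0558).

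On the control diet Cyp2a4, a female-predominant steroid hydroxylase, rose by 4.33 on the log2 scale (SE 1.09, edgeR adjusted p = 0.0136). Its levels were low, at 0.178, 0.239, 0.0345 and 0.0641 CPM fasted and 0.121, 6.35, 0.359 and 3.62 refed, and the groups overlapped. Control refed libraries 2 and 4 held the highest values. Without library 2 the log2 fold change was 3.44 (edgeR adjusted p = 0.0406). With limma-voom it was 3.35 over all libraries and did not pass (limma-voom adjusted p = 0.125). Cyp2c70, which makes muricholic acids in mouse, rose by 1.72 (SE 0.56, edgeR adjusted p = 0.0484), with overlapping groups at 18.2, 38.9, 80.6 and 40.8 CPM fasted and 67.3, 110, 349 and 63.4 refed. Without control refed library 3, at 349 CPM, the value was 0.84 and did not pass (edgeR adjusted p = 0.233). The call held in 10 of 25 alternatives and was lost without any of 12 libraries. Of the members lower after refeeding on this diet, Cyp2c39 fell by 0.88 (SE 0.26, edgeR adjusted p = 0.028) and Cyp3a13 fell by 0.37 on the log2 scale (SE 0.12, edgeR adjusted p = 0.0428). Cyp3a13 went from 250 ± 19.5 to 193 ± 20 CPM. Cyp2c39 passed in 18 of 25 alternatives, not without control fasted library 1 or 2 or control refed library 1, 3 or 4. Cyp3a13 passed in 12 of 25, and leaving out any of 10 libraries ended its call.

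**Figure D5:**
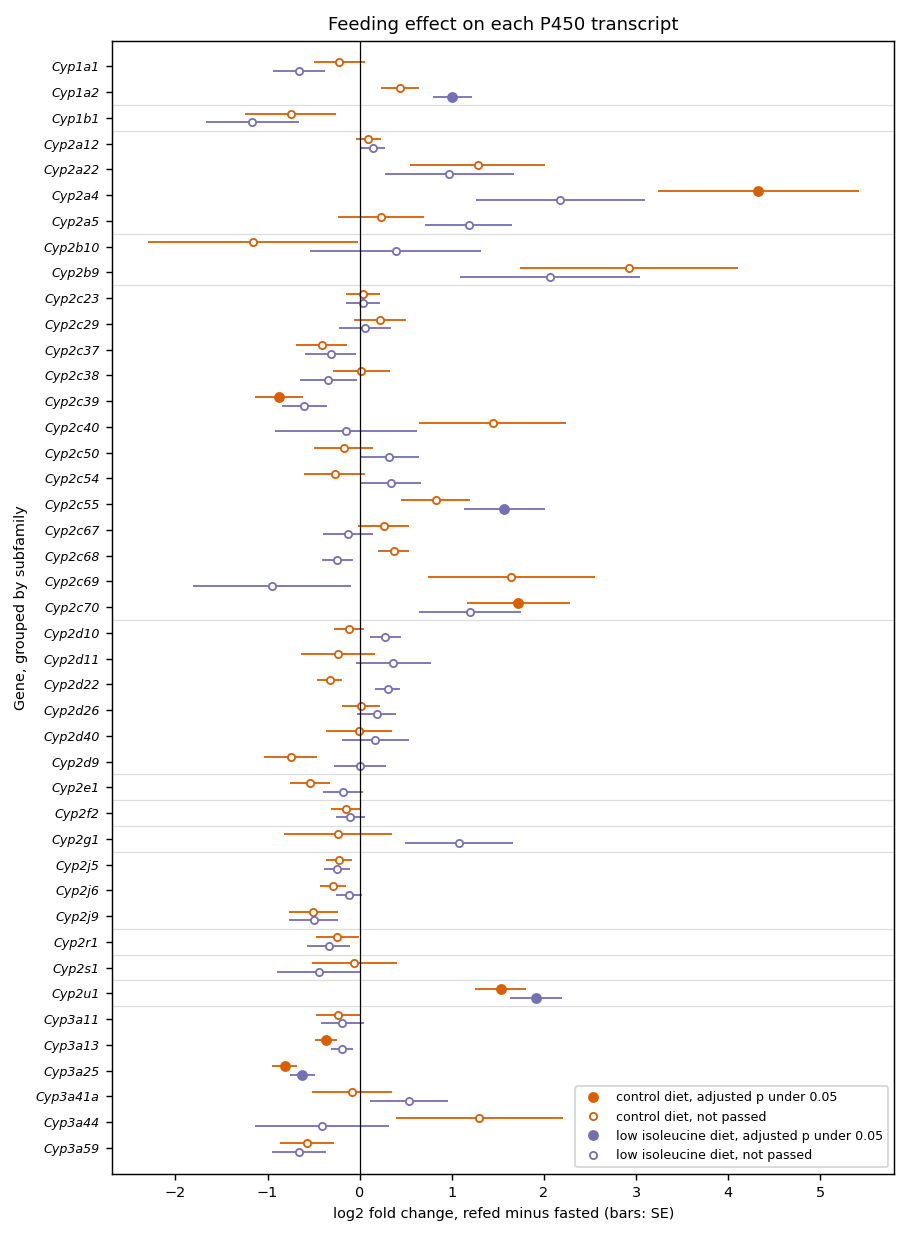
Fitted log2 fold change, refed minus fasted, of each of the 43 members on the control and the low isoleucine diet, with SE bars, grouped by subfamily. Filled points passed the edgeR test, 6 on the control diet against 4 on the low isoleucine diet, with Cyp2u1 (1.53 and 1.92) and Cyp3a25 (-0.81 and -0.62) filled for both.

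Members that missed the threshold included several with separate groups. Cyp2e1 differed by -0.54 on the log2 scale on the control diet and did not pass (SE 0.215, edgeR adjusted p = 0.0981), and by -0.34 without control refed library 4. Its difference on the low isoleucine diet was -0.18, with an interval of -0.6 to 0.24. Cyp2a5, a coumarin hydroxylase, was at 231 ± 131 CPM in low isoleucine fasted and 524 ± 46.9 in low isoleucine refed livers, 1.18 on the log2 scale (edgeR adjusted p = 0.0904). Cyp2a4 on that diet went from 0.471 ± 0.387 to 2.18 ± 1.2 CPM, 2.18 on the log2 scale (edgeR adjusted p = 0.106). Cyp2b9 was higher in every low isoleucine refed than fasted liver, 2.06 on the log2 scale, and did not pass. It passed without control refed library 2 (edgeR adjusted p = 0.0402).

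The genes that serve the P450 enzymes were listed separately. Por, their electron donor, was at 447 ± 105 CPM in control fasted, 447 ± 136 in low isoleucine fasted, 158 ± 73.2 in control refed livers, and 178 ± 52 in their low isoleucine counterparts (SD, n = 4). It fell with refeeding by 1.5 on the control diet (edgeR adjusted p = 0.00515) and by 1.33 on the low isoleucine diet (edgeR adjusted p = 0.00814), and its diet difference in refed livers was 0.17 (edgeR adjusted p = 0.906). Of the 6 redox partners, none passed in a diet comparison, against 0.771% of all genes in fasted and 0.174% in refed livers. Cyb5b also rose on the control diet (0.62, edgeR adjusted p = 0.0155) and Pgrmc2 fell by 0.58 on the low isoleucine diet (edgeR adjusted p = 0.00254). Alas1, the rate-setting enzyme of haem synthesis, was at 674 ± 64.6, 559 ± 186, 1050 ± 360 and 652 ± 88.3 CPM in the same order and passed in no comparison, with a refed diet difference of -0.69 (edgeR adjusted p = 0.38). Of 8 haem synthesis genes, none passed by diet, against the same shares of all genes. Cpox fell with refeeding on both diets by 0.49 and by 0.47 (edgeR adjusted p = 0.0275 and 0.026). Fech fell on the low isoleucine diet by 0.29, while Alad (1.2, edgeR adjusted p = 0.0123) and Uros (0.34, edgeR adjusted p = 0.0376) rose.

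Receptors that act on P450 genes gave calls with feeding and none with diet, where far fewer of all genes passed. Of 11 receptors and partners tested, none passed in a diet comparison, against 0.771% of all genes in fasted and 0.174% in refed livers. With refeeding 2 rose and 3 fell on the control diet, against 17.1% of all genes. On the low isoleucine diet 3 rose and 2 fell, against 21.4% of all genes. The aryl hydrocarbon receptor Ahr was at 29.2 ± 4.8 CPM in low isoleucine fasted and 49.5 ± 6.89 in low isoleucine refed livers and rose by 0.76 (edgeR adjusted p = 0.00501). On the control diet it did not pass (0.27, edgeR adjusted p = 0.342). Nr1i2, the receptor PXR, fell by 0.62 with refeeding on the control diet (edgeR adjusted p = 0.0139) and did not pass on the low isoleucine diet (-0.41, edgeR adjusted p = 0.0804). Nr1i3, the receptor CAR, passed in no comparison, with group means of 421 to 581 CPM. Ppara fell by 1.31 and by 1.77 and Rxra by 0.68 and by 0.69 on the control and low isoleucine diets, whereas Nr1h4 (0.42 and 0.78) and Esr1 (0.69 and 0.84) rose on both. The highest edgeR adjusted p among these 8 values was 0.034.

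Of 18 liver-enriched and clock factors, none passed in the fasted or the refed diet comparison, against 0.771% and 0.174% of all genes. With refeeding Nfe2l2 (0.79 and 0.69) and Foxa3 (0.78 and 0.64) rose on both, and Cebpb (-1.25 and -1.12) and Nr1d2 (-0.67 and -0.57) fell on both. Nr1d1 fell by 1.69 on the control diet. On the low isoleucine diet alone Dbp rose by 0.97, Hnf4a fell by 0.71 and Rora fell by 0.55.

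Receptor targets outside the P450 family gave 3 calls in the fasted diet comparison and none in the refed one, against 0.771% and 0.174% of all genes. Of 4 AhR targets tested, Ugt1a6a and Ugt1a6b, glucuronosyltransferases encoded by overlapping transcripts, fell by 0.62 and by 0.67 in fasted livers (edgeR adjusted p = 0.0428 and 0.049), and none passed in refed livers. In the averaged contrast both fell, by 0.4 and by 0.47 (edgeR adjusted p = 0.0404 and 0.0333). Ugt1a6a rose with refeeding on the low isoleucine diet (0.44, edgeR adjusted p = 0.0261). Of 16 CAR and PXR targets, Ces2a, a carboxylesterase, fell by 0.82 in fasted livers (edgeR adjusted p = 0.0188), from 149 ± 14.2 to 84.3 ± 4.67 CPM, and by 0.44 in the averaged contrast (edgeR adjusted p = 0.0284), and none passed in refed livers. With refeeding on the control diet 2 of the 16 rose and 5 fell, against 8.91% of all genes higher and 8.2% lower: Gstm3 (1.47) and Abcb1a (0.78) rose, and Por, Sult1d1 (-0.68), Abcc3 (-0.68), Ces2a (-0.44) and Abcc2 (-0.4) fell. On the low isoleucine diet 2 rose and 2 fell, against 9.6% of all genes higher and 11.8% lower: Gstm3 (1.93) and Abcb1a (0.93) rose and Gadd45b (-2.39) and Por fell.

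Of 25 P450 genes of the other families tested, 3 passed by diet in fasted and 1 in refed livers, against 0.771% and 0.174% of all genes. Cyp39a1, an oxysterol hydroxylase, rose in both (1.75 and 1.26, edgeR adjusted p = 0.00717 and 0.0341), Cyp4a14, a fatty acid hydroxylase, rose in fasted livers (0.79, edgeR adjusted p = 0.0252) and Cyp4f15 fell by 0.54 (edgeR adjusted p = 0.0385). In the averaged contrast Cyp17a1, Cyp39a1, Cyp4a10 and Cyp4a14 rose and Cyp4a12a, Cyp4a12b and Cyp4f15 fell. With refeeding on the control diet 2 rose and 6 fell (17.1% of all genes passed in either direction), led by Cyp26a1, a retinoic acid hydroxylase, at 3.29 (edgeR adjusted p = 0.000288). On the low isoleucine diet 3 rose and 6 fell (21.4% of all genes), with Cyp26a1 at 3.26 (edgeR adjusted p = 0.000161).

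Cyp2e1 and Cyp1a2 are known as pericentral enzymes, made by hepatocytes around the central vein. Of 13 pericentral genes outside the family none passed by diet in either state, against 0.771% of all genes in fasted and 0.174% in refed livers. Their medians were 0.21 and 0.24 against 0.01 and -0.01 over all genes. Lgr5 rose in the averaged contrast (0.62, edgeR adjusted p = 0.0402), where 1.51% of all genes passed. With refeeding Lgr5 and Rnf43 rose on both diets, and on the low isoleucine diet Lect2 rose and Tbx3 fell. Of 9 periportal genes none passed by diet, Sds fell with refeeding on both diets, Pigr fell on the control diet, and Hsd17b13 fell on the low isoleucine diet. Control refed library 4 had the lowest pericentral sum of its group (2210 CPM, range 2210 to 4090). It had the highest periportal sum (6150 CPM, range 3110 to 6150). The part of this in its P450 levels was not tested.

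Markers of other cells also differed in level between the diets. Of 11 Kupffer cell markers, 10 had negative diet differences in fasted livers and 11 in refed livers, with medians of -0.54 and -0.4 on the log2 scale and no call. Their summed level was 313 to 410 CPM in control fasted, 201 to 292 in low isoleucine fasted, 234 to 446 in control refed livers, and 188 to 332 in their low isoleucine counterparts, and none was at 0 throughout. The hepatocyte sum ran the other way in fasted livers, at 63100 to 96000 CPM on the control and 97700 to 118000 on the low isoleucine diet, with 6 of 7 positive and no call. Most of that sum was Alb, at 54100 ± 14200 against 80400 ± 8670 CPM. Apoa1 was at 5540 ± 697 against 6010 ± 765, and Tat was lower, at 1700 ± 392 against 1270 ± 397. In refed livers the hepatocyte sum was 76700 to 81000 against 80700 to 104000 CPM. Of 7 lymphocyte markers tested, Cd4 fell by 1.76 in fasted livers (edgeR adjusted p = 0.0287), with list sums of 4.63 to 6.14 CPM on the control diet against at most 4.74 on the low isoleucine diet. Of 5 erythroid markers, Hbb-bs rose by 1 in fasted livers (edgeR adjusted p = 0.0275), with sums of 198 to 252 against 246 to 636 CPM. The erythroid marker Alas2 went the other way, at 62.5 ± 7.03 CPM on the control and 29.1 ± 14.2 on the low isoleucine diet. Fasted differences were positive for 4 of the 5 and negative for 1, and refed ones positive for 2 and negative for 3. No marker of stellate (7 tested), endothelial (7), neutrophil (3) or bile duct cells (4) passed by diet in either state, against 0.771% and 0.174% of all genes. In the averaged contrast Clec4f, Cd4 and Alas2 fell. With refeeding on the control diet Lrat rose and Reln fell, and on the low isoleucine diet Apob, Hbb-bs and Hbb-bt fell. The part of these shifts in the P450 differences was not tested.

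The authors' deposited table for fasted livers lists 41 of the 43 members, leaving out Cyp2d11 and Cyp2s1, and its adjusted p was under 0.05 for 3 of them, against 0.64% of its 14211 genes. Beside Cyp2c68 (0.9, adjusted p = 0.0172) and Cyp2c39 (1.2, adjusted p = 0.0307), the authors' deposited table passes Cyp2d9 (-1.22, adjusted p = 0.045), which missed here. The authors' deposited table for refed livers passes Cyp2c39 alone of the 41 (1.49, adjusted p = 0.0132), against 0.274% of its genes.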

How the data were processed

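RNA of 16 liver libraries (stranded, poly-A) was sequenced, and the reads of several lanes were joined per sample before expression was estimated, per the labels' protocols. The authors deposited expected counts, estimated with RSEM per its header and name, and 10.2% of the values are not whole. Its aligner, build and annotation were not given in the sources used here. For each diet comparison the authors deposited log2 fold changes, p-values, adjusted p-values, an F score and mean log2 CPM, as its header names them. R 3.5.3, limma and edgeR appear in the submitters' processing notes, with no role given.

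Counts were rounded and fitted in R 4.3.3 with edgeR 4.0.16 (TMM, filterByExpr with a minimum count of 10 and total of 15, 1 mean per group over all 16 libraries, robust quasi-likelihood F test). P-values were adjusted by Benjamini-Hochberg over 14920 genes with a threshold of 0.05. DESeq2 1.42.0, limma-voom (limma 3.58.1), other scalings and filters, fits to the compared groups alone, a replicate block and leaving out each library were alternatives. An SE was derived from the size of the log2 fold change and its F statistic, and levels are TMM-normalised CPM as mean ± SD. Figures were drawn with matplotlib 3.10.9 and promoters were aligned with Biopython 1.88. Libraries are numbered 1 to 4 within a group in accession order. Library totals of 24368656 to 34002955 set the precision of low genes.

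The members, the gene lists and the averaged contrast were chosen with earlier results of these data known. Any member could be named. All 16 values were given for members that passed a diet comparison and for the most abundant of each main subfamily, as well as for others shown for their separation, chosen after their values were seen. From each other list, members that passed were named, up to 6 by smallest p, with Ahr, Nr1i2, Nr1i3, Por and Alas1 in any case. A result of 1 listed gene is not reported here.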

Additional observations from a re-analysis of the deposited data

Results flagged for a closer look

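In each group of 4 livers, a library was noted where its gap to the nearest of the others exceeded Dixon's 95% critical share of the group's range and the group's highest level was at least 1 CPM. Of 143 sets of 4 values examined, 17 met this. The critical share is set to give about 1 in 20 for independent, normally distributed values. Levels were not tested for that shape, and members measured in the same libraries are not independent. No excess over that rate can be read from the count.

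Control refed library 2 stood above the rest of its group for Cyp2b9 (28.3 CPM against 0.399 to 2.46) and Cyp2c69 (57.6 CPM against 1.57 to 10.5). Control refed library 4 stood below for Cyp2e1 (4560 CPM against 9320 to 10100) and Cyp2f2 (485 CPM against 715 to 721). Control refed library 3 stood above for Cyp2c70 (349 CPM against 63.4 to 110), and without it the gene's control diet feeding difference was 0.84 on the log2 scale.

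Low isoleucine fasted library 1 stood above for Cyp1b1 (3.19 CPM against 0.933 to 1.17) and Cyp2a22 (48.5 CPM against 17.6 to 22.5), and below for Cyp2d10 (355 CPM against 424 to 438) and Cyp2f2 (449 CPM against 569 to 592). Library 4 of that group was below for Cyp2c38, at 113 CPM against 117 in each of the others.

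In control fasted livers, library 1 was above for Cyp2b9 (3.7 CPM against 0.0321 to 0.512), library 2 above for Cyp2b10 (1.19 CPM against 0 to 0.178) and library 3 below for Cyp2d26 (433 CPM against 576 to 595). In low isoleucine refed livers, library 1 was above for Cyp2c70 (145 CPM against 62.9 to 71.2), library 2 below for Cyp2g1 (1.02 CPM against 1.74 to 1.82), library 3 below for Cyp2d26 (468 CPM against 713 to 741) and library 4 below for Cyp2j5 (352 CPM against 434 to 449).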

How the results depend on the processing

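The number of members passing by diet in fasted livers was 2, against 5 with DESeq2, 8 in a fit to the fasted groups alone and 0 to 4 when single libraries were left out. In refed livers it was 1, against 2 with DESeq2, 2 with limma-voom, 0 in a fit to the refed groups alone and 0 to 2 without single libraries. With feeding it was 6 on the control diet, against 2 in a fit to those groups alone and 3 to 6 without single libraries. On the low isoleucine diet it was 4, against 7 with limma-voom, 10 in a fit to those groups alone and 3 to 5 without single libraries. Averaged over feeding states it was 4, against 10 with DESeq2 and 3 to 8 without single libraries. Over all genes, the fasted diet count of 115 became 371 with DESeq2, 193 in the fit to the fasted groups and 6 to 222 without single libraries. The refed count of 26 became 179 with DESeq2, 3 in the fit to the refed groups and 3 to 89 without single libraries, and the averaged count of 226 became 603 with DESeq2. The interaction gave 0 members throughout, and DESeq2 called 35 genes there. Of 419 single values for members that passed, 74 lost the threshold and 0 reversed; the cause was not tested. A fit to the compared groups alone was not run for the averaged contrast.

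The marks in the labels recur in every group. Of 24 pairs of libraries with the same mark, 8 had a correlation of deviations over 0.1 (range -0.325 to 0.323), and 8 of 16 libraries correlated best with their own mark, so the marks were not taken as pairs. With the mark as replicate block, 2 members passed by diet in fasted livers, 1 in refed livers, 0 in the interaction, 4 with feeding on each diet and 6 in the averaged contrast. Cyp2c70 (edgeR adjusted p = 0.0692) and Cyp3a13 (edgeR adjusted p = 0.0656) were the feeding calls lost.

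Shared sequence limits what can be said of single Cyp2c, Cyp2a and Cyp3a genes. The widest SE by diet in fasted livers were those of Cyp2b9 (1.21), Cyp2a4 (1.19), Cyp2b10 (0.999) and Cyp2c69 (0.948). Their shares of 50-base windows found in another gene were 11.2%, 38%, 9.69% and 54.8%. Cyp3a41a, at 98.6%, had an SE of 0.436, so wide SE were not confined to members with much shared sequence.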
